A study of Homo sapiens with 4 samples.

Results

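The genes MSH3, MSH6, MLH3, PMS1 and PMS2 belong to DNA mismatch repair, and they were followed here in Jurkat cells, a human T-cell acute lymphoblastic leukemia line. They were chosen by name, and every probe set that the array's annotation gives to these 5 symbols was taken, which made 17 of the 54613 probe sets tested. Of these, 15 were annotated to MSH3, MSH6, MLH3 or PMS1 alone. The other 2 were annotated to PMS2 together with its pseudogene PMS2CL, so PMS2 had no probe set of its own, and its values cannot be assigned to the gene alone. All cells had been transfected with HiPerFect and harvested 24 h later. The siLEF1 group (2 arrays) received 100 nM of an siRNA pool against LEF1, and the siNT group (2 arrays) received 100 nM of a non-targeting pool. Only 1 cell line was used, and the labels call the replicates biological without saying whether they came from separate cultures, so the p-values measure the spread between these arrays. The comparison asks which genes respond when LEF1, a transcription factor of Wnt/β-catenin signaling, is reduced.

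Mismatch repair corrects bases that were wrongly paired during replication. MutS proteins, among them MSH6 and MSH3, recognize the mismatch or loop. MutL proteins, among them PMS2, MLH3 and PMS1, then act on it, and an exonuclease, the sliding clamp, a DNA polymerase and a ligase remove and renew the strand. Jurkat is known as a line with defective mismatch repair, and an array measures RNA levels, not repair.

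None of the 17 probe sets differed between siLEF1 and siNT cells at an adjusted p under 0.05, with limma p-values adjusted over all probe sets by the Benjamini-Hochberg method. At an unadjusted p under 0.05 there were 6, and over the whole array 15.6% of probe sets (8538) reached it. The smallest adjusted p was 0.163, at 1 of the PMS2/PMS2CL probe sets, and the largest was 0.93, at MLH3. Over the whole array 0.207% of probe sets passed the adjusted p and a fold change over 2. The log2 fold changes, as siLEF1 minus siNT, ran from -1.02 to 0.74, with 8 below 0 and 9 above. The groups did not overlap in 12 of the 17 probe sets (70.6%), with siLEF1 lower in 6 and higher in 6, and over all probe sets they did not overlap in 48.6%. MSH6 signals were higher in siLEF1 cells without overlap in 4 of 4 probe sets, of which 3 kept a value above 0 when the arrays were centred on housekeeping genes instead. Both PMS2/PMS2CL probe sets were lower without overlap. Their log2 fold changes were below 0, and that centring, which moved every value by -0.23, could only lower them. The values of PMS1 and MSH3 probe sets lay on both sides of 0. In bulk RNA, fewer cells with a transcript and less of it per cell cannot be told apart.

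**Figure D1:**
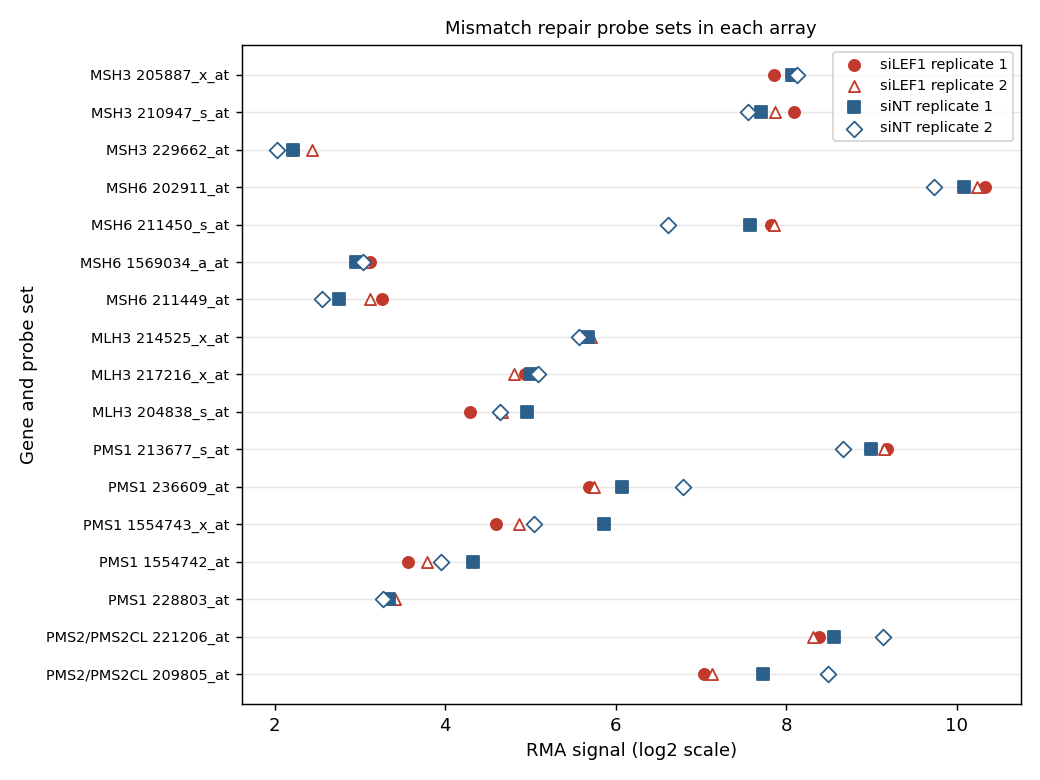
The horizontal axis gives the RMA signal (log2) of the 17 mismatch repair probe sets in each of the 4 arrays, with siLEF1 as red circles and triangles and siNT as blue squares and diamonds. The siLEF1 signals lie above both siNT signals in all 4 MSH6 probe sets and below both in the 2 PMS2/PMS2CL probe sets. Over the whole array the groups are apart in 48.6% of probe sets. The MSH6 probe sets 211449_at and 1569034_a_at lie under the lower quartile of every array.

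The 4 arrays had medians between 4.84 and 4.85 on the log2 scale. LEF1 itself was read by 3 probe sets, whose log2 fold changes were -0.93, -0.71 and -0.19. Their adjusted p-values were 0.141, 0.191 and 0.673 from limma, so the knockdown did not pass on these arrays. The study itself reported lower LEF1 RNA by qRT-PCR, and lower LEF1 protein, 24 h after transfection. The labelled cell type was checked with 10 T-cell markers, which lay between 4.75 and 12.74: CD3D, a subunit of the T-cell receptor complex, had signals between 12.44 and 12.74 and the kinase gene LCK between 11.68 and 12.42, while CD2, an adhesion receptor gene of T cells, lay between 4.75 and 5.52. Of the other lists, 5 B-cell markers lay between 3.69 and 6.54, 5 myeloid markers between 2.90 and 5.58, 4 erythroid markers between 3.89 and 8.14, and 7 epithelial and stromal markers between 2.38 and 8.56. The median log2 fold change was 0.41 in T-cell markers (9 of 10 above 0), which was 0.18 without siNT replicate 2, and no T-cell marker passed. It was -0.49 in erythroid markers, of which 3 of 4 were lower in siLEF1 cells without overlap. Over all probe sets the groups did not overlap, in either direction, in 48.6%. KLF1, an erythroid transcription factor gene, had a log2 fold change of -1.46 (limma adjusted p = 0.137, and 0.0262 with the replicate block). The block paired same-numbered arrays, whose deviations correlated at -0.155 across probe sets. That fit called 977 probe sets lower and 120 higher over the whole array. In B-cell, myeloid, and epithelial and stromal markers the medians were 0.10, -0.14 and 0.05, and none passed. In siNT replicate 2 the signal was the lowest of the 4 arrays in 10 of 10 T-cell markers, and in 8 of the 17 mismatch repair probe sets it was the lowest and in 5 the highest. The arrays also differed in RNA quality. The 5' minus 3' signal of ACTB was -1.08 and -1.55 in the siLEF1 arrays, against -1.80 and -1.95 in the siNT arrays, and that of GAPDH was -0.34 and -0.32 against -0.39 and -0.65. The part of these differences in the values of mismatch repair genes was not tested.

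The sequences just upstream of PMS2, MSH6 and PMS1 are shown because these genes had the probe sets with the lowest p, and because LEF1 is a sequence-specific factor. They were read from the RefSeq promoter table (GRCh38.p14), 5' to 3' along the gene's strand, up to the base before the gene's start, and in PMS2 and PMS1 they begin after the start of the gene on the opposite strand. The capitals mark CTTTGA, the core of the site bound by TCF and LEF factors, in PMS2, the GC box GGGCGG in MSH6, and CCAAT in PMS1, each on either strand.

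PMS2, minus strand, chr7:6009107-6009271: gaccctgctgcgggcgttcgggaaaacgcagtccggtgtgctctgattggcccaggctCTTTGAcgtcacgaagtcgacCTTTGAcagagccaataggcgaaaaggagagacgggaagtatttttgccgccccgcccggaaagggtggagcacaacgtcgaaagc
MSH6, plus strand, chr2:47782895-47783144: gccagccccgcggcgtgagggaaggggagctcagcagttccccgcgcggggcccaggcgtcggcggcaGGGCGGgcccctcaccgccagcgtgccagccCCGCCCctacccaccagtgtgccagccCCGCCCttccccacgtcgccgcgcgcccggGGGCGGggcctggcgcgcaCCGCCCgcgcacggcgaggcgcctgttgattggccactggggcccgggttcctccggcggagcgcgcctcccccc
PMS1, plus strand, chr2:189784340-189784449: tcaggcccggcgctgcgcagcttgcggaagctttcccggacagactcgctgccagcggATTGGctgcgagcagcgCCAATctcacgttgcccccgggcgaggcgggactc

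In the 250 bases before the start, CTTTGA occurred 2 times in PMS2, beginning 107 and 86 bases before it, and 0 times in MSH3, MSH6, MLH3 and PMS1. Of the 35116 promoter entries of the table, 11.2% hold it. The longer forms CTTTGAA and CTTTGAT occurred in none of the 5 promoters and in 5.94% of all. The E2F site TTTGGCGC or TTTCGCGC, bound by the factors that drive S phase genes, occurred in MSH3 only, as 2 overlapping matches on opposite strands, and in 0.968% of all promoters. The GC box had 5 matches in MSH6, 4 in MSH3, 2 in PMS2, 1 in PMS1 and 0 in MLH3, and 42.6% of all promoters hold it. The box CCAAT had 2 matches in PMS1, 2 in PMS2 and 1 in MSH6, and 32.0% of all promoters hold it. The table lists 4 starts for MSH6 and 2 for PMS2, and the outermost start was used. A match describes the letters in this window only.

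MSH6 is the MutS subunit that recognizes single mismatches and short loops. Its brightest probe set, 202911_at, read 10.33 and 10.24 in the siLEF1 arrays, against 10.08 and 9.73 in the siNT arrays. The log2 fold change was 0.38 (standard error 0.18, 95% interval -0.04 to 0.81, limma adjusted p = 0.368, n = 2 arrays per group), and the siNT replicates lay further apart than the siLEF1 replicates. Without siNT replicate 2 it was 0.21. Probe set 211450_s_at of MSH6 read 7.82 and 7.85 in the siLEF1 arrays, against 7.57 and 6.61 in the siNT arrays. Both siLEF1 arrays were close together, and siNT replicate 2 was far below the other 3. For 211450_s_at the log2 fold change was 0.74 (limma adjusted p = 0.319), which was 0.26 without siNT replicate 2. The remaining MSH6 probe sets, 211449_at and 1569034_a_at, lay under the lower quartile of every array, where the size of a change is uncertain. Their log2 fold changes were 0.54 (limma adjusted p = 0.204) and 0.10. Against siNT replicate 1 alone the 4 values were between 0.14 and 0.44, all above 0.

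MSH3 is the MutS subunit that recognizes larger insertion and deletion loops. Its probe set 205887_x_at, the brightest by mean signal, read 7.86 and 8.08 in the siLEF1 arrays, against 8.07 and 8.12 in the siNT arrays, which overlapped. The log2 fold change was -0.13 (standard error 0.16, 95% interval -0.51 to 0.25, limma adjusted p = 0.758). Probe set 210947_s_at of MSH3 read 8.09 and 7.87 in the siLEF1 arrays, against 7.70 and 7.55 in the siNT arrays. Here the siLEF1 arrays lay above both siNT arrays, with a log2 fold change of 0.35 (95% interval -0.04 to 0.75, limma adjusted p = 0.369). The probe sets of MSH3 thus differed in sign, and the third, 229662_at, lay under the lower quartile of every array with a log2 fold change of 0.20.

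MLH3 encodes a MutL protein that acts in mismatch repair and in meiotic crossing over. Its brightest probe set, 214525_x_at, read 5.61 and 5.71 in the siLEF1 arrays, against 5.67 and 5.57 in the siNT arrays. The groups overlapped, and the log2 fold change was 0.04 (standard error 0.15, 95% interval -0.32 to 0.40, limma adjusted p = 0.93). The interval gives no bound on the change in MLH3 RNA. It leaves out a 2-fold change in either direction only for the signal of this probe set. Its mean signal lay under 6, so the filter on dim signals left it out. In 217216_x_at and 204838_s_at of MLH3 the log2 fold changes were -0.18 and -0.33, with adjusted p-values of 0.628 and 0.493 from limma. The siLEF1 signals of 204838_s_at, 4.29 and 4.66, overlapped the siNT signals, 4.96 and 4.64.

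PMS1 encodes a MutL protein whose part in repair is less clear. Its brightest probe set, 213677_s_at, read 9.18 and 9.15 in the siLEF1 arrays, against 8.99 and 8.66 in the siNT arrays. The log2 fold change was 0.34 (standard error 0.17, 95% interval -0.08 to 0.76, limma adjusted p = 0.408), with both siLEF1 arrays above both siNT arrays, and it was 0.17 without siNT replicate 2. Probe set 236609_at of PMS1 showed the opposite order, at 5.69 and 5.74 in the siLEF1 arrays, against 6.07 and 6.79 in the siNT arrays. Its log2 fold change was -0.71 (95% interval -1.32 to -0.11, limma adjusted p = 0.258). In 1554743_x_at of PMS1 the siLEF1 signals were 4.60 and 4.86, against 5.86 and 5.04 for siNT, with a log2 fold change of -0.72 (limma adjusted p = 0.298), which was -0.31 without siNT replicate 1 and -1.13 without siNT replicate 2. In 1554742_at of PMS1 the log2 fold change was -0.47 (limma adjusted p = 0.314), or -0.28 without siNT replicate 1, and in 228803_at it was 0.04. Both 1554742_at and 228803_at lay under the median of every array, where the size of a change is uncertain. The siNT array that was far from the rest was replicate 2 in 236609_at and replicate 1 in 1554743_x_at. Which transcripts of PMS1 each probe set reads was not analysed here.

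PMS1 starts 111 bases from ORMDL1, a gene of sphingolipid regulation on the opposite strand, so that both share the upstream sequence shown above. The brightest ORMDL1 probe set, 223187_s_at, read 10.21 and 10.25 in the siLEF1 arrays, against 10.59 and 10.76 in the siNT arrays. Its log2 fold change was -0.45 (95% interval -0.82 to -0.08, limma adjusted p = 0.247), and the other 2 had -0.24 and -0.21. All 3 ORMDL1 values were below 0, while that of the brightest PMS1 probe set was above 0, and neither gene passed. PMS2 lies 166 bases from AIMP2 in the same arrangement, and AIMP2 was not analysed here.

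PMS2 encodes the MutL subunit that nicks the new strand. It has many pseudogenes, of which PMS2CL is one. The brighter PMS2/PMS2CL probe set, 221206_at, read 8.38 and 8.31 in the siLEF1 arrays, against 8.56 and 9.13 in the siNT arrays. The log2 fold change was -0.50 (standard error 0.22, 95% interval -1.02 to 0.03, limma adjusted p = 0.343), and it was -0.21 without siNT replicate 2 and -0.79 without siNT replicate 1. The dimmer probe set of PMS2/PMS2CL, 209805_at, read 7.03 and 7.13 in the siLEF1 arrays, against 7.72 and 8.49 in the siNT arrays. Both siLEF1 arrays lay below both siNT arrays, and siNT replicate 2 was 0.76 above replicate 1. Its log2 fold change was -1.02, which is 2.03-fold (standard error 0.26, 95% interval -1.65 to -0.40, limma adjusted p = 0.163). Without siNT replicate 2 it was -0.64 (limma adjusted p = 0.295).

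Because the PMS2 signal is shared, the pseudogenes with probe sets of their own were set beside it. This group was chosen after the values had been seen. PMS2P1, PMS2P2, PMS2P3, PMS2P4, PMS2P5 and PMS2P8 had 13 probe sets. Their log2 fold changes ran from -0.77 to -0.04, all below 0 with all 4 arrays. In 8 of 13 (61.5%) the groups did not overlap, against 48.6% of all probe sets in either direction. None passed (smallest limma adjusted p = 0.158), and 6 had an unadjusted limma p under 0.05, which 15.6% of all probe sets reached. With the arrays centred on housekeeping genes 13 of 13 were below 0. That centring moved every value by -0.23, so it could not have raised any above 0. Without siNT replicate 2 there were 12 below 0 (median -0.44), and without siNT replicate 1 there were 9 below 0 and 4 above (median -0.52). The median with all 4 arrays was -0.27, against 0.04 over all probe sets. In PMS2P5 (242201_at) the siLEF1 signals were 6.08 and 6.44, against 7.17 and 6.89 for siNT, which is a log2 fold change of -0.77. In PMS2P3 (216525_x_at) they were 9.55 and 9.56 against 10.27 and 10.08, a log2 fold change of -0.62. The siNT replicates were closer together in these probe sets than in 209805_at of PMS2/PMS2CL. Probe sets of near-identical sequences can share targets, as can those of _x_at type in general, so these are not 13 separate measurements.

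**Figure D2:**
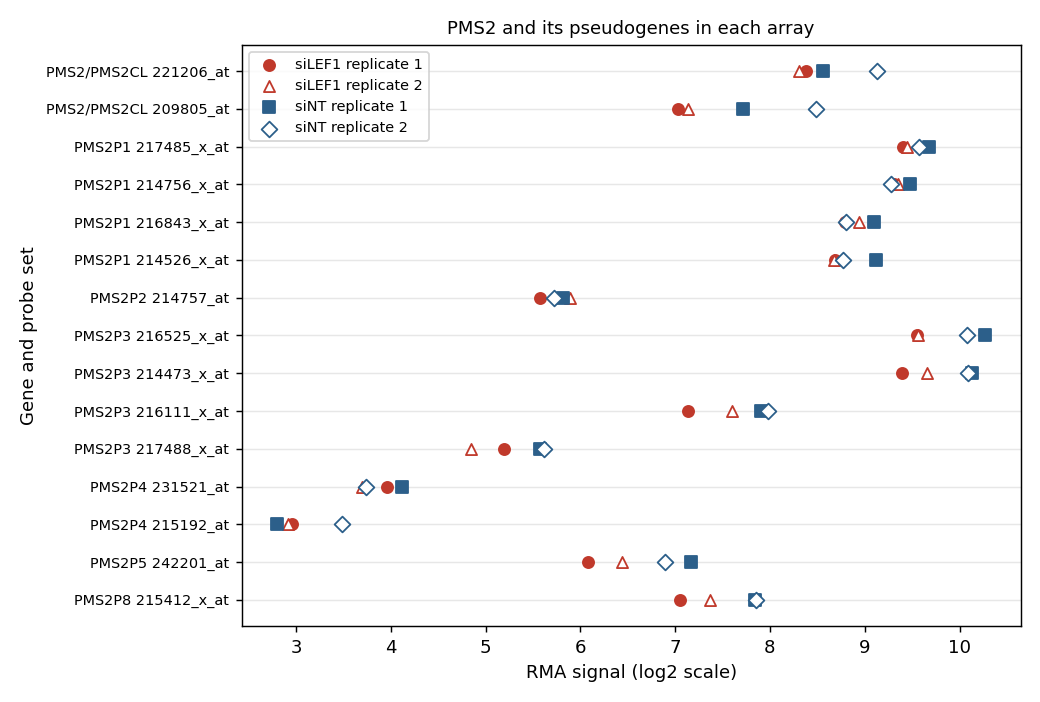
The horizontal axis gives the RMA signal (log2) of the 2 probe sets annotated to PMS2 with PMS2CL and of the 13 probe sets of PMS2 pseudogenes in each array, with red circles and triangles for siLEF1 and blue squares and diamonds for siNT. The mean of the siLEF1 arrays is below that of the siNT arrays in each, and the groups are apart in both PMS2/PMS2CL probe sets and in 8 of the 13 others. Over the whole array the groups are apart in 48.6% of probe sets.

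These sizes depended on the siNT array used. Over the 17 probe sets the replicates differed by a median of 0.32 in siNT cells and of 0.11 in siLEF1 cells. Over all probe sets these medians were 0.206 and 0.147. The siNT replicates lay further apart in 10 of 17, against 58.8% of all probe sets. Without siNT replicate 1, limma called 3 of the 17, while 3.45% of all probe sets were called in that fit, where the lone siNT array is assumed to vary like the siLEF1 arrays. These were 209805_at of PMS2/PMS2CL (-1.41, adjusted p = 0.0422), 211450_s_at of MSH6 (1.22, adjusted p = 0.0439) and 236609_at of PMS1 (-1.08, adjusted p = 0.0483). Without siNT replicate 2 the log2 fold changes of these 3 were -0.64, 0.26 and -0.35, all under 2-fold.

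**Figure D3:**
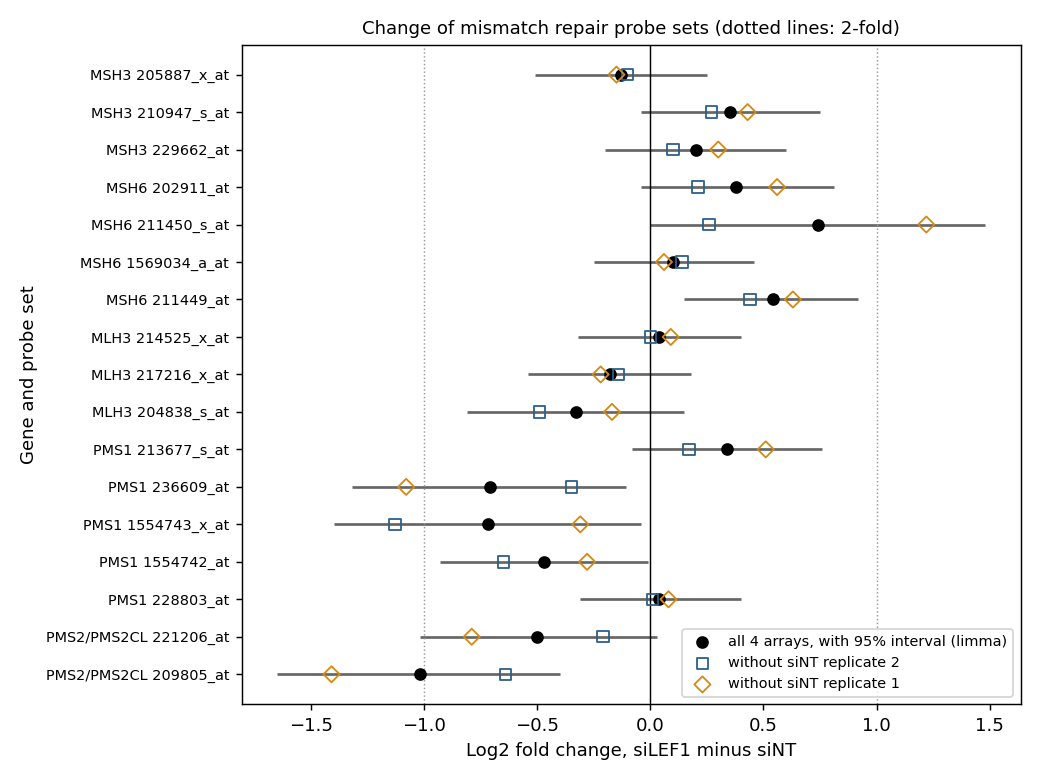
Log2 fold change, siLEF1 minus siNT (horizontal axis), of the 17 mismatch repair probe sets, with black points and 95% intervals from limma for all 4 arrays, blue squares without siNT replicate 2 and orange diamonds without siNT replicate 1. The diamonds pass 1 or -1, which is 2-fold, in 1 probe set each of MSH6, PMS1 and PMS2/PMS2CL.

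The factors that act after recognition were described by the brightest probe set of each gene. Of 16 such genes, namely EXO1, PCNA, HMGB1, LIG1 and the subunits of replication factor C, replication protein A and DNA polymerase delta, none passed and 4 had an unadjusted p under 0.05, against 15.6% of all probe sets. The median log2 fold change was 0.14, with 11 above 0 and 5 below. With the arrays centred on housekeeping genes the median was -0.09, with 6 above 0 and 10 below. LIG1, the ligase that seals the repaired strand, read 10.23 and 10.44 in the siLEF1 arrays, against 9.92 and 9.26 in the siNT arrays, a log2 fold change of 0.74 (limma adjusted p = 0.232), which was 0.41 without siNT replicate 2. The polymerase delta subunit genes POLD2, POLD1 and POLD4 had log2 fold changes of 0.68, 0.65 and -0.59, with adjusted p-values of 0.177, 0.240 and 0.183 from limma. Without siNT replicate 2 these values were 0.48, 0.36 and -0.71. EXO1, the exonuclease of the pathway, had one of -0.06, and PCNA, the sliding clamp, one of 0.09. POLD3, the remaining polymerase delta subunit gene, had one of 0.13.

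Of 5 genes linked to the pathway, all but MSH5 had a probe set of their own, and none of these 4 passed. MCM9, a helicase gene of mismatch repair, had signals of 7.67 in each siLEF1 array, against 7.95 and 8.15 in the siNT arrays, which is a log2 fold change of -0.38 (limma adjusted p = 0.314). FAN1, a nuclease that binds MutL proteins, SETD2, which writes the histone mark that MSH6 reads, and the meiotic MSH4 had values of 0.13, 0.11 and -0.08.

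Mismatch repair acts behind the replication fork, so 19 replication and S phase genes were set beside the members. None of them passed, and 6 had an unadjusted p under 0.05, against 15.6% of all probe sets. The log2 fold changes ran from 0.02 to 0.84 with a median of 0.35. TK1, a thymidine kinase gene, read 8.86 and 8.94 in the siLEF1 arrays, against 8.48 and 7.65 in the siNT arrays, a log2 fold change of 0.84 (limma adjusted p = 0.236), which was 0.42 without siNT replicate 2. For CCNE2, GINS2 and MCM7, which act at the start of replication, the log2 fold changes were 0.54, 0.63 and 0.52, and without siNT replicate 2 they were 0.35, 0.36 and 0.26. In 19 of 19 genes siNT replicate 2 had the lowest signal of the 4 arrays, and without it the median was 0.15 and 16 were above 0. Centring on housekeeping genes also left 16 above 0, with a median of 0.12. Among the members, siNT replicate 2 was also the lowest array in the brightest probe sets of MSH6, PMS1 and MLH3. In those of MSH3 and PMS2/PMS2CL it was the highest.

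**Figure D4:**
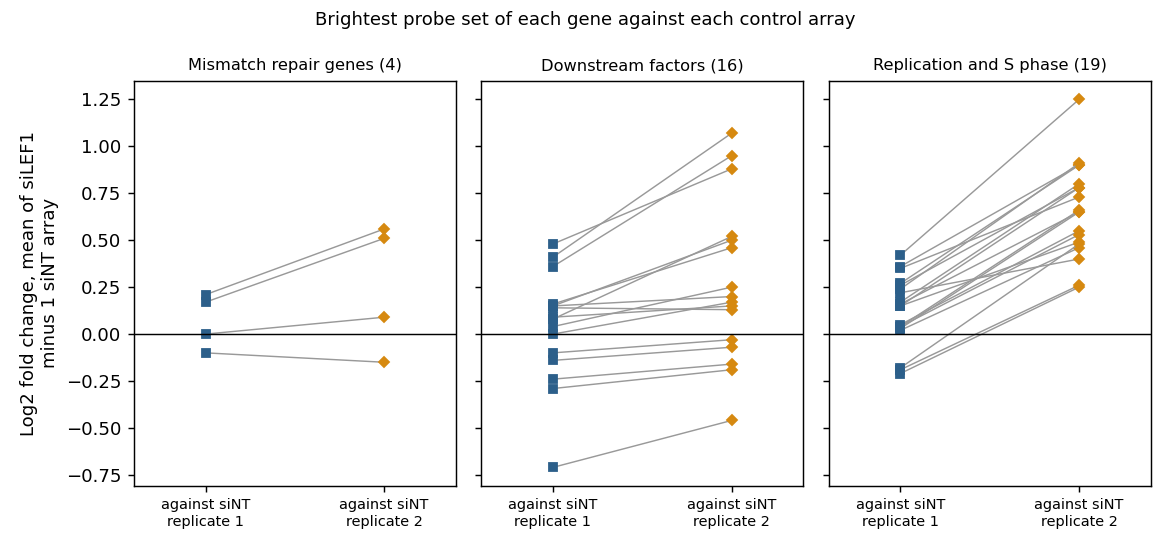
Log2 fold change of the brightest probe set of each gene (vertical axis), as the mean of the siLEF1 arrays minus a single siNT array, for 4 mismatch repair genes, 16 downstream factors and 19 replication and S phase genes, with a line joining the values of 1 gene. The values against siNT replicate 2 are the higher ones in all replication and S phase genes, and the median there is 0.65 against 0.15 for replicate 1.

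The genes whose pattern over the 4 arrays was most like each member were sought among 1162 genes with a mean signal of at least 6 and a range of at least 1. For MSH6 they were ALDH5A1 and TSPAN7 (Pearson's r 0.9999 and 0.9997), and for PMS1 BRI3BP and APLP2 (0.9999 each). For PMS2/PMS2CL they were RNF103 and TUBB2A (0.9999 each). The same measure passed 0.95 in 254, 286 and 337 genes for MSH6, PMS1 and PMS2/PMS2CL, so likeness over 4 arrays is shared by many genes there. For MSH3 and MLH3 it passed 0.95 in 2 genes each, GOSR1 and FBXL6 for MSH3 (0.986 and 0.967) and TRIM58 and SAMD1 for MLH3 (0.996 and 0.959). The signals of these 2 members hardly moved, between 7.86 and 8.12 for MSH3 and between 5.57 and 5.71 for MLH3. Over all probe sets the siNT replicates differed by a median of 0.206, so these 2 patterns may be spread between arrays.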

How the data were processed

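RNA of Jurkat cells had been hybridized to HG-U133 Plus 2.0 arrays (Affymetrix), 2 per group. The authors made the values with RMA in Expression Console (the submitters' notes give version 1.1), and the deposited table holds log2 signals of every probe set. RMA makes the distributions of the arrays equal, so a shift common to most genes would not be seen. Groups came from the sample labels. After removal of 62 control probe sets, siLEF1 minus siNT was tested across all 54613 others, 2-sided, with lmFit and eBayes of limma 3.58.1 (R 4.3.3) and Benjamini-Hochberg adjustment. Calls needed both an adjusted p below 0.05 and more than a 2-fold change, the study's thresholds. The study compared 3 groups, and 2 were compared here. Symbols were updated by Entrez number (21304 of 21359 found). In lists, each gene was represented by its brightest probe set.

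The members and gene lists were chosen with earlier results of these data known. Genes named are all members, up to 4 genes with the smallest p per list described, the nearest gene on the opposite strand, the 2 most alike in pattern and LEF1. EXO1, PCNA, POLD3, FAN1, SETD2, MSH4, CD3D, LCK and the PMS2 pseudogenes were added for their roles after the values had been seen, as were the promoter motifs. Alternatives were a filter on dim signals, a trended and robust eBayes, a replicate block, other centring, other probe sets and fold thresholds, and leaving out each array. The scripts were tested on simulated data. Precision is limited by the number of arrays.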

Additional observations from a re-analysis of the deposited data

How the results depend on the processing

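No mismatch repair probe set was called under any alternative run except without siNT replicate 1, so that leaving out 1 array gave between 0 and 3 calls. Over all probe sets, 100 were called lower and 13 higher. Leaving out 1 array gave between 0 and 1287 lower and between 0 and 595 higher. A filter at a mean signal of 6 gave 4 and 1, centring on housekeeping genes 1265 and 25, and a trended and robust eBayes 20 higher. With the replicate block there were 977 lower and 120 higher, and 0 of the members were called. Deviations of same-numbered arrays correlated at -0.155 across probe sets, so a crossed pairing was added after seeing the data, with 763 lower and 159 higher. Centring on housekeeping genes moved every log2 fold change by -0.23, which left 12 of the 17 member values below 0 and 5 above. The brightest probe set of MLH3 then had -0.19, and it had values between -0.01 and 0.09 when 1 array was left out. Other probe sets reversed the sign of the brightest in MSH3 (0.35 and 0.20), MLH3 (-0.18 and -0.33) and PMS1 (-0.71, -0.72 and -0.47). Dim signals were among them. The PMS1 probe set with -0.47 lay under the median of every array, and the MSH3 probe set with 0.20 under the lower quartile. The medians over the probe sets of these genes were 0.20, -0.18 and -0.47. The cause of these reversals was not tested. The brightest probe sets of MSH6 and PMS2/PMS2CL kept their direction in all alternatives run, and neither was called. The filter, the trended and robust eBayes and the blocks leave the log2 fold change itself as it was. With 1 array left out it lay between 0.21 and 0.56 for MSH6, and between -0.79 and -0.21 for PMS2/PMS2CL. Housekeeping centring gave 0.15 and -0.73.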
